A study of Sus scrofa with 10 samples.

Results

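The VEGF and angiopoietin system was followed through 10 genes in ovary RNA-seq libraries of 10 pigs. The members were the ligands VEGFA, VEGFC, ANGPT1 and ANGPT2, the receptors KDR, FLT1, FLT4 and TEK, and the endothelial genes PECAM1 and VWF. They were found by symbol among the gene names that the deposited table pairs with its loci alone. The choice of these symbols was made with earlier results of these data known. Each symbol matched 1 protein-coding locus, so that the members were 10 of 19972 protein-coding loci and of 43499 loci in all. Values are FPKM, fragment counts scaled by transcript length and library size, and these allow levels to be compared between genes.

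The pigs were gilts of 1 genetic background that shared a day of birth, and 1 library was made from each. All had been fed altrenogest, a progestin that holds back oestrus, with a daily dose of 20 mg over 18 days that began at 210 days of age, and the feeding had been stopped for 2 days. The 5 gilts of the rpFSH treatment group, labelled fpFSH in the sample records, then received 1000 IU of recombinant pig follicle-stimulating hormone made in CHO cells. The 5 gilts of the control group, labelled untreated, received saline. Ovaries were taken at 234 days of age after the surface follicles had been removed, so the libraries hold the mixed cells of the remaining ovary. In such bulk tissue, fewer cells of a type and less RNA per cell cannot be told apart. The labels and the methods differ on the library, the former giving poly(A) mRNA on a NovaSeq and the latter rRNA depletion on a HiSeq.

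VEGF ligands act on tyrosine kinase receptors of endothelial cells. VEGFA acts on KDR (VEGFR2) and is bound by FLT1 (VEGFR1), which holds it away from KDR, while VEGFC acts on FLT4 (VEGFR3), the main receptor of lymphatic vessels. ANGPT1 activates the receptor TEK (TIE2) and steadies vessels, and ANGPT2, which endothelial cells store and release, can oppose it. In the ovary, new vessels grow into the theca of follicles and, after ovulation, into the corpus luteum, a tissue known for a dense capillary network and strong VEGFA expression.

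None of the 10 members was DE between the groups. With edgeR's quasi-likelihood test on the deposited counts, 0 of 10 members had an adjusted p under 0.05, and 0 of the 15170 tested protein-coding loci did (0%). The smallest adjusted p over all loci was 0.981, although 717 loci had an unadjusted P under 0.05 with edgeR and 86 had an adjusted p under 0.05 with DESeq2. No member was among the loci with an unadjusted edgeR P under 0.05, which made up 1.52% of the tested loci on the higher side in the rpFSH treatment group and 3.21% on the lower side. By the limits given in the methods, an unadjusted P under 0.05 and a log2 fold change beyond 1 or -1, 0 members were called, against a background of 0.534% of loci higher and 2.58% lower. The groups overlapped in FPKM for every member, while 0.0791% of the tested loci had all 5 rpFSH values above all 5 control values and 0.547% had all below. The members' log2 fold changes, taken as rpFSH over control, had a median of 0.05 beside -0.01 over all tested loci. Of the members 6 of 10 were above 0, and of all tested loci 7333 of 15170.

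Control replicate 2 stood apart from the other libraries and decided several of these directions. Total counts were between 64873797 and 75114003 per pig, and the replicate 2 library, at 74480245, lay within this range. Its mean correlation with the other libraries across genes was 0.848, the lowest, followed by 0.875 in control replicate 5 and by 0.892 to 0.928 in the rest. It had the highest FPKM of the 10 pigs in 6 of 10 members (VEGFA, VEGFC, ANGPT1, KDR, FLT1 and TEK) and the lowest in ANGPT2, while it was highest in 17.8% of all tested loci. Without it, 9 of 10 members had a log2 fold change above 0, beside 7869 of the 15170 tested loci. The median of the members was then 0.39, beside 0.01 over all loci. As this pig was highest in 6 members, leaving it out raises their fold changes by construction. The count moved with other pigs too. It was 3 of 10 without control replicate 4 (median -0.15) and 4 of 10 without control replicate 5 (median -0.07). For the members, their ratios and their correlations, values without control replicate 2 are given beside those of all pigs. These values keep rpFSH replicate 1. Leaving out rpFSH replicate 1 instead gave log2 fold changes of -0.60 for VEGFA, -0.51 for VEGFC and -0.175 for FLT1. Those without control replicate 2 were above 0 for these 3 genes.

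The levels of luteal markers also set control replicate 2 apart. Of 6 listed luteal markers 4 had a locus, namely CYP11A1 and STAR of steroid synthesis, the lipoprotein receptor SCARB1 and the prostaglandin receptor PTGFR, and each was above 0 in every pig. Their summed FPKM was 2721 in control replicate 2, 1415 in rpFSH replicate 1 and 346 in rpFSH replicate 4, and between 15.2 and 58.5 in the 7 other pigs. STAR alone had FPKM of 532, 448 and 121 in these 3 pigs and between 1.52 and 5.67 elsewhere. Markers of oviduct-type ciliated epithelium, with 6 of 8 matched, summed to 109.5 in control replicate 5, 59.3 in control replicate 2, and 4.49 to 15.8 in the others. The part of these tissues in the levels of the members was not tested.

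**Figure D1:**
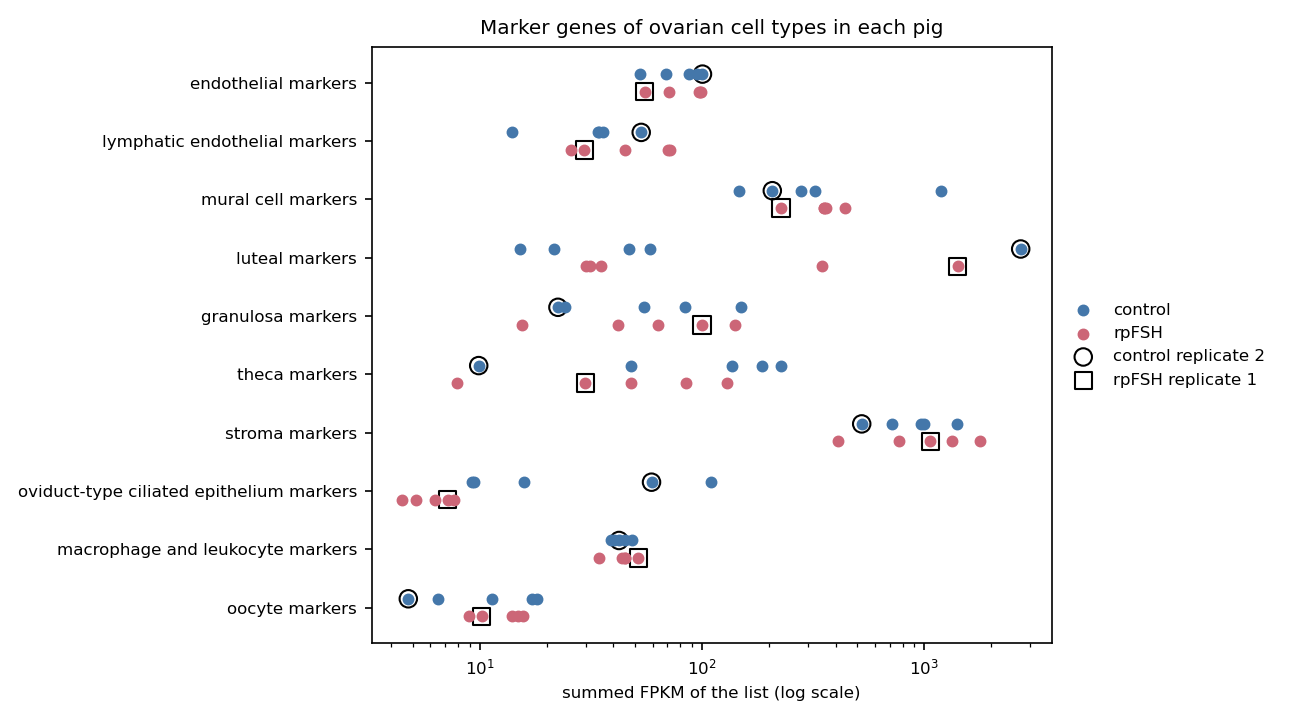
Summed FPKM (log scale) of marker lists for 10 ovarian cell types, 1 point per pig, with control pigs in blue and rpFSH pigs in red. Control replicate 2 (circle) and rpFSH replicate 1 (square) lie at 2721 and 1415 for the luteal markers, whereas for the endothelial markers both groups cover nearly the same range, 52.5 to 100.6 and 55.3 to 99.6.

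VEGFA, the main ligand of blood vessel growth, lies at chr7:38746055-38762342 on the plus strand (locus MSTRG.30687, Sscrofa11.1). Its FPKM was 9.21, 35.5, 6.85, 12.3 and 10.3 in control replicates 1 to 5, and 17.7, 9.27, 5.99, 9.35 and 12.2 in rpFSH replicates 1 to 5. The highest values were those of control replicate 2 and rpFSH replicate 1, the pigs with the highest luteal sums, and the other 8 values of both groups were interleaved. The pig with the next highest luteal sum, rpFSH replicate 4 (346), had 9.35 and lay among these 8. VEGFA averaged 14.8 ± 11.7 in control pigs and 10.9 ± 4.41 in rpFSH pigs (SD, n = 5 each), and 9.64 ± 2.25 in the 4 control pigs other than replicate 2. The log2 fold change was -0.38 with a 95% interval from -1.36 to 0.61 (edgeR, adjusted p = 1.00, as for every member), and 0.25 (-0.38 to 0.88) without control replicate 2.

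VEGFC, a ligand of lymphatic growth, lies at chr15:39035440-39133142 on the minus strand (MSTRG.13017). Its FPKM was 1.71, 8.56, 2.17, 1.47 and 1.40 in control replicates 1 to 5 and 4.85, 1.05, 1.88, 2.74 and 2.46 for rpFSH pigs. As with VEGFA, control replicate 2 was highest and rpFSH replicate 1 next, and the remaining control values fell within a narrow band inside the rpFSH range. The means were 3.06 ± 3.09 and 2.60 ± 1.41 (SD, n = 5 each), with a log2 fold change of -0.19 (95% interval -1.43 to 1.06). It turned to 0.68 without control replicate 2, with an interval from -0.14 to 1.50, and the other 4 control pigs had a narrow spread of 1.69 ± 0.350 (SD).

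ANGPT1, which mural and stromal cells secrete, lies at chr4:29932297-30234330 on the plus strand (MSTRG.22781). It was the lowest member, with FPKM of 0.495, 5.65, 0.794, 2.19 and 0.896 among control pigs and 1.25, 2.07, 0.401, 0.812 and 0.892 among rpFSH pigs. Control replicate 2 was 5.17 times the mean of the other 4 control pigs, a larger multiple than for any other member. The means were 2.01 ± 2.14 and 1.09 ± 0.630 (SD, n = 5 each). A log2 fold change of -0.80 (95% interval -2.28 to 0.68) became 0.07 (-1.10 to 1.25) without that library.

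ANGPT2, the context-dependent partner of ANGPT1, lies at chr15:37541496-37594492 on the minus strand (MSTRG.12996). In contrast to the other ligands, its FPKM was lowest in control replicate 2: 10.1, 2.51, 7.96, 4.44 and 3.44 in the control group, and 3.02, 6.35, 3.94, 5.78 and 6.25 in the rpFSH treatment group. The value of rpFSH replicate 1 was the next lowest, and control replicates 1 and 3 were the highest. The means were 5.70 ± 3.23 and 5.07 ± 1.50 (SD, n = 5 each), and the log2 fold change was -0.10 (95% interval -0.97 to 0.77), or -0.28 without control replicate 2.

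Among the receptors, KDR, which carries most of the VEGFA signal in endothelial cells, lies at chr8:41809115-41856379 on the minus strand (MSTRG.32656). Its FPKM was 16.5, 35.5, 21.3, 11.8 and 12.8 in the control pigs and 21.2, 15.7, 18.3, 26.0 and 19.1 in the rpFSH pigs. All 5 rpFSH pigs lay between the lowest and the highest control pig, and 4 of them were above the control median. The means were 19.6 ± 9.64 and 20.1 ± 3.86 (SD, n = 5 each), with a log2 fold change of 0.10 (95% interval -0.55 to 0.74). Without control replicate 2 it was 0.43 (-0.04 to 0.90).

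FLT1, whose product binds VEGFA more tightly than KDR does, lies at chr11:5619970-5794957 on the minus strand (MSTRG.4835). Its FPKM was 4.57, 15.3, 6.59, 3.23 and 4.66 in control replicates 1 to 5 and 10.2, 4.02, 6.17, 5.82 and 6.99 for rpFSH pigs. The order of the pigs at the top was again control replicate 2 and rpFSH replicate 1. With means of 6.87 ± 4.86 and 6.65 ± 2.28 (SD, n = 5 each), the log2 fold change was 0.01 (95% interval -0.88 to 0.91), or 0.55 (-0.08 to 1.17) without control replicate 2.

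FLT4, the receptor of VEGFC, lies at chr2:78075114-78115547 on the plus strand (MSTRG.18864). Its FPKM was 5.78, 10.7, 6.09, 3.55 and 5.48 among control pigs and 5.43, 4.94, 8.21, 11.14 and 12.1 among rpFSH pigs. The rpFSH pigs fell apart into replicates 1 and 2, within the range of the control pigs other than replicate 2, and replicates 3, 4 and 5, above it. FLT4 averaged 6.32 ± 2.64 and 8.36 ± 3.24 (SD, n = 5 each), and its log2 fold change of 0.47 (95% interval -0.25 to 1.19) was the largest upward one of the members. Without control replicate 2 it was 0.75 (0.08 to 1.41; edgeR, adjusted p = 0.91). FLT4 was then the 1 member with an unadjusted P under 0.05, where 2.51% of all tested loci were higher at this P.

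TEK, the angiopoietin receptor, lies at chr1:195937431-196052182 on the minus strand (MSTRG.2416). Its FPKM was 3.25, 8.23, 4.73, 1.81 and 7.99 in the control pigs and 2.90, 3.28, 6.71, 6.39 and 6.83 in the rpFSH pigs. Both control replicates that stood apart, 2 and 5, had the highest values. The means were nearly equal at 5.20 ± 2.85 and 5.22 ± 1.96 (SD, n = 5 each), with a log2 fold change of 0.09 and a 95% interval from -0.83 to 1.00. It was 0.31 without control replicate 2, and without control replicates 2 and 5 it was 0.74 (-0.17 to 1.66; edgeR, adjusted p = 0.78).

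PECAM1, an adhesion protein of endothelial junctions that platelets and leukocytes also carry, lies at chr12:14636641-14723295 on the plus strand (MSTRG.5910). Its FPKM was 7.02, 10.8, 6.52, 4.15 and 12.4 in control replicates 1 to 5 and 8.46, 6.89, 11.0, 10.4 and 12.3 for rpFSH pigs. Here 4 of 5 rpFSH pigs were above the control median, but control replicate 5 was the highest of all. The means were 8.17 ± 3.34 and 9.81 ± 2.14 (SD, n = 5 each), with a log2 fold change of 0.34 (95% interval -0.26 to 0.95). It was 0.46 without control replicate 2 and 0.80 without control replicates 2 and 5, with an interval from 0.26 to 1.35 but an adjusted p of 0.68 (edgeR).

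VWF, the clotting factor that endothelial cells store beside ANGPT2, lies at chr5:64517268-64678840 on the plus strand (MSTRG.25647). Its FPKM was 21.8, 28.3, 25.3, 11.7 and 20.3 among control pigs and 11.4, 19.8, 27.7, 32.6 and 28.6 among rpFSH pigs. The lowest values were those of rpFSH replicate 1 and control replicate 4, and the groups overlapped widely. With means of 21.5 ± 6.31 and 24.0 ± 8.42 (SD, n = 5 each), the log2 fold change was 0.23 (95% interval -0.45 to 0.92), or 0.35 without control replicate 2.

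**Figure D2:**
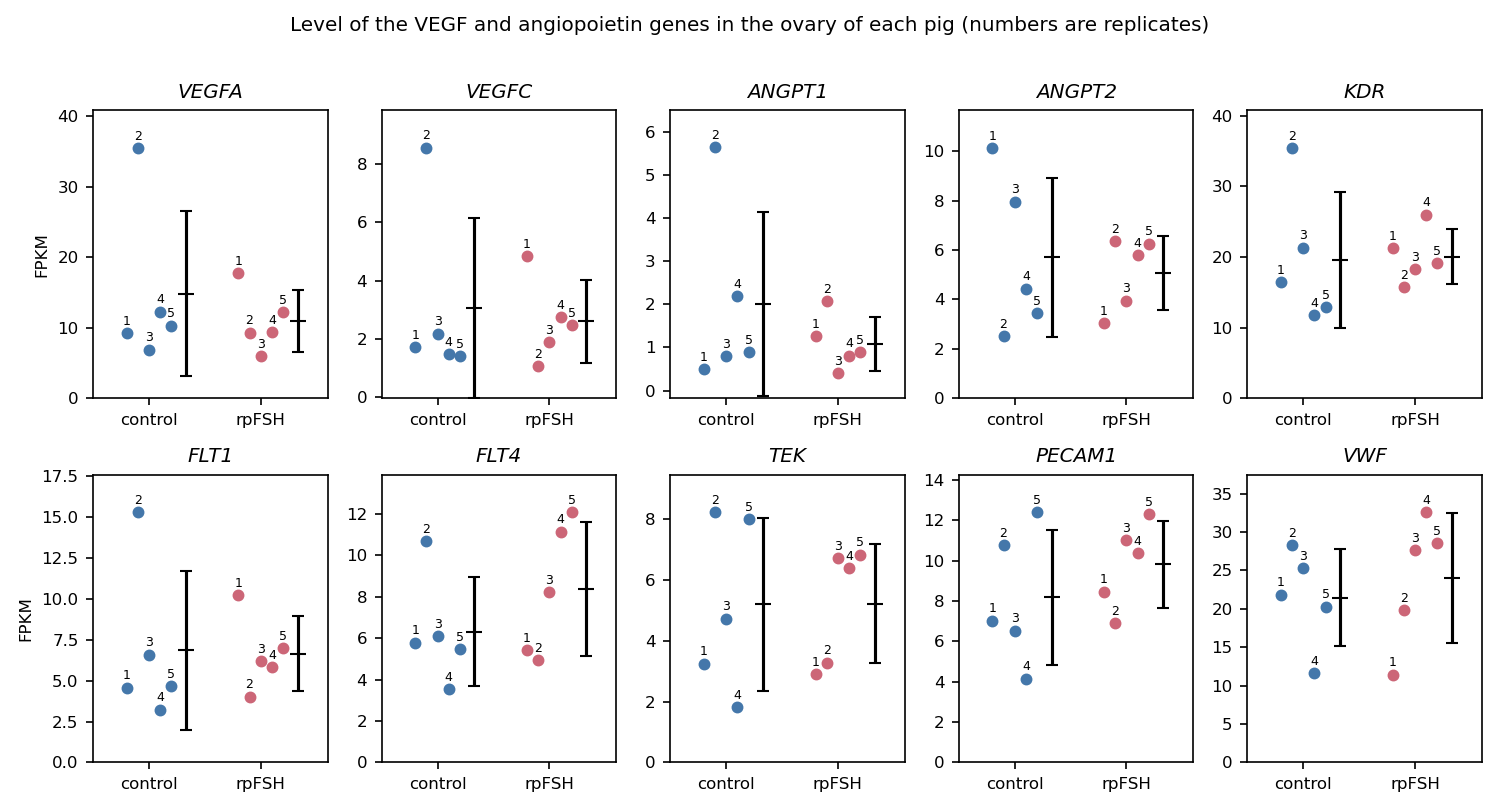
FPKM of the 10 members in each pig, with control pigs in blue, rpFSH pigs in red, replicate numbers above the points, and the group mean with SD (n = 5) as a bar. The axes are linear and differ between panels. Control replicate 2 is the highest of 10 pigs for VEGFA (35.5), VEGFC (8.56), ANGPT1 (5.65), KDR (35.5), FLT1 (15.3) and TEK (8.23), and the lowest for ANGPT2 (2.51).

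**Figure D3:**
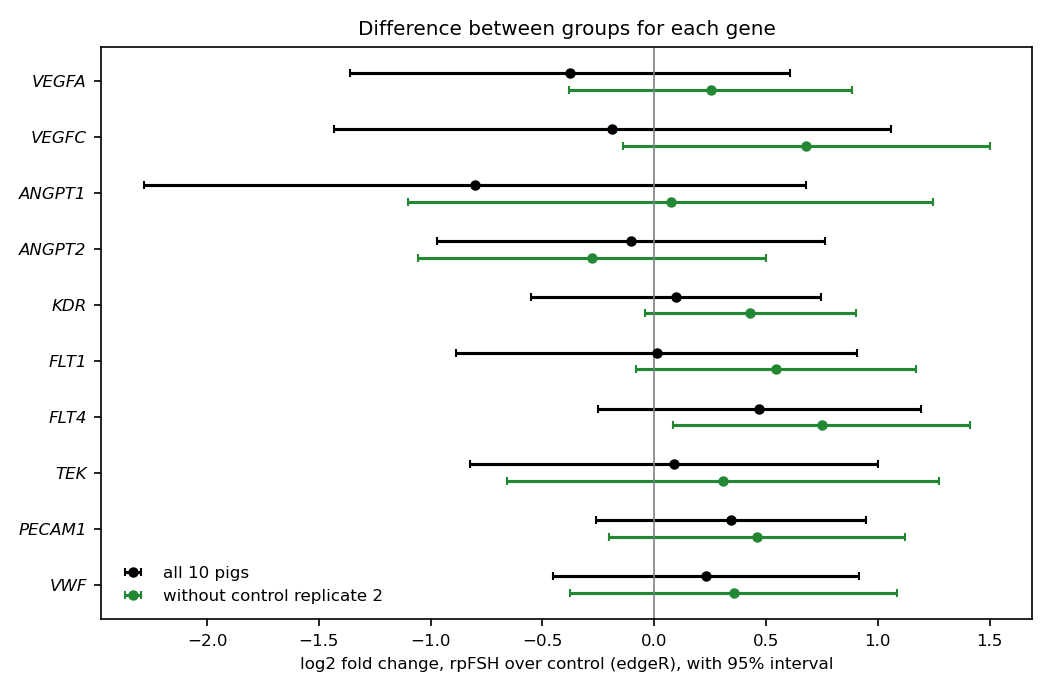
Log2 fold change (rpFSH over control) of each member with its 95% interval from edgeR, for all 10 pigs (black) and without control replicate 2 (green). With all pigs each interval includes 0, and VEGFA, VEGFC and ANGPT1 move from -0.38, -0.19 and -0.80 to 0.25, 0.68 and 0.07.

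Ordered by mean FPKM over the 10 pigs, the levels ran from VWF (22.7) and KDR (19.8) through VEGFA (12.9), PECAM1 (8.99), FLT4 (7.34), FLT1 (6.76), ANGPT2 (5.38) and TEK (5.21) to VEGFC (2.83) and ANGPT1 (1.55). Neighbours in this order mostly could not be ranked pig by pig. VWF was above KDR in 7 of 10 pigs, VEGFA above PECAM1 in 6, FLT4 above FLT1 in 7, FLT1 above ANGPT2 in 6 and ANGPT2 above TEK in 5. The clearer steps were PECAM1 above FLT4, in 9 of 10 pigs, and KDR above VEGFA, TEK above VEGFC and VEGFC above ANGPT1, in 8 each. By mean level, VWF lay at the 97.0 percentile of the tested loci and ANGPT1 at the 33.3.

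The members differed in how much they varied among pigs of the same group. Compared with tested loci of like level, the SD of log2 (FPKM + 1) within groups was at the 94.7 percentile for VEGFC, 93.6 for ANGPT1, 91.3 for TEK, 89.4 for FLT1 and 88.5 for VEGFA. KDR and VWF varied less, at the 62.8 and 67.1 percentiles. The highest pig was 14.1 times the lowest for ANGPT1, 8.14 times for VEGFC and 5.93 times for VEGFA, against 2.85 times for VWF and 2.98 times for PECAM1. Control replicate 2 was that highest pig for ANGPT1, VEGFC and VEGFA, and the percentiles include it. Without it, the SD of control FPKM fell from 3.09 to 0.350 for VEGFC and from 2.14 to 0.751 for ANGPT1. It fell from 11.7 to 2.25 for VEGFA and from 4.86 to 1.38 for FLT1, but only from 2.85 to 2.65 for TEK.

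Ratios of member pairs within a pig were compared next, since a common scale of a library cancels in them. None of 8 ratios passed the test between the groups, a two-sided exact permutation test over the 252 assignments of the pigs, with adjusted p from 0.787 to 0.937. The design could have reached a p of 0.00794. The ratio of ANGPT2 to ANGPT1 was 20.5, 0.444, 10.0, 2.03 and 3.84 in the control pigs and 2.41, 3.06, 9.84, 7.12 and 7.01 in the rpFSH pigs. ANGPT1 exceeded ANGPT2 in control replicate 2 and in no other pig. Its log2 difference, rpFSH minus control, was 0.47 (exact permutation p = 0.690) and -0.30 without that pig (exact permutation p = 0.714).

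FLT1 relative to KDR, the balance of the decoy to the signalling receptor, stayed within 0.275 to 0.432 in control and 0.224 to 0.482 in rpFSH pigs, with a log2 difference of -0.02, or 0.08 without control replicate 2. VEGFA relative to KDR was 0.560, 1.00, 0.322, 1.04 and 0.799 among control pigs and 0.836, 0.591, 0.327, 0.360 and 0.640 among rpFSH pigs, so the groups overlapped (log2 difference -0.40, exact permutation p = 0.341, or -0.26 without control replicate 2). VEGFC relative to FLT4 was 0.892 in rpFSH replicate 1 and 0.801 in control replicate 2, and between 0.204 and 0.414 in the other 8 pigs. Its log2 difference was -0.41 (exact permutation p = 0.413), and either of these pigs moved it. Without control replicate 2 it was -0.15 (exact permutation p = 0.833), and without rpFSH replicate 1 it was -0.81, where the exact permutation p was 0.0238 before and 0.190 after adjustment over the 8 ratios.

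To set members against a single endothelial gene, 4 ratios used PECAM1 as the denominator. Whether PECAM1 measures the amount of endothelium was not tested. Its own log2 fold change was 0.34, and the 4 ratios share it, so their differences are not independent. VEGFA over PECAM1 had the largest difference, -0.60 on the log2 scale (exact permutation p = 0.262), with ratios of 0.827 to 3.30 in the control pigs and 0.543 to 2.10 in the rpFSH pigs. For KDR and TEK over PECAM1, all 5 rpFSH pigs were below the control median, with log2 differences of -0.20 and -0.22 (exact permutation p = 0.595 and 0.389). VWF over PECAM1 differed by -0.21 (exact permutation p = 0.492). Without control replicate 2 the log2 differences were -0.35 for VEGFA, -0.08 for KDR, -0.12 for TEK and -0.22 for VWF over PECAM1, and the smallest exact permutation p of the 4 was 0.50. None of these differences was larger than the spread between pigs.

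**Figure D4:**
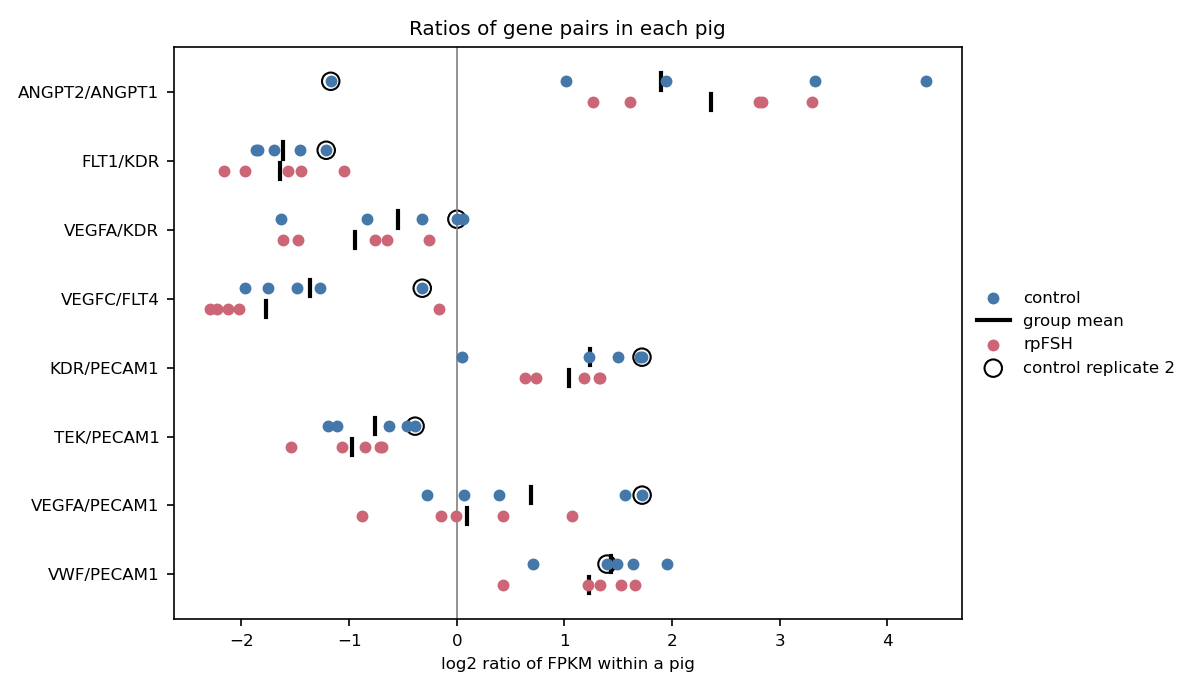
Log2 ratio of FPKM of 8 member pairs in each pig, with control pigs in blue, rpFSH pigs in red, group means as black ticks and control replicate 2 circled. The groups overlap in every ratio, and ANGPT2 over ANGPT1 spreads most within the control group, with an SD of 2.14 there and 0.874 for rpFSH pigs, among which VEGFC over FLT4 had 0.902.

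Correlations among the members were taken over the 10 pigs, and the share of positive pairs among other genes of these libraries was not computed. Of 45 pairs, 33 had a positive Pearson r of log2 (FPKM + 1), and 9 had an adjusted p under 0.05 for r (permutation test, 100000 permutations). For 3 pairs both r and Spearman's rho passed, namely VEGFC with FLT1 (r = 0.950, rho = 0.867, permutation adjusted p = 0.00585 and 0.0328), VEGFC with KDR (r = 0.851, rho = 0.891, permutation adjusted p = 0.0196 and 0.0250) and FLT4 with VWF (r = 0.823, rho = 0.952, permutation adjusted p = 0.0230 and 0.00540). Without the 2 pigs farthest from the median of the first gene, r was 0.778, 0.805 and 0.774. Without control replicate 2 alone, r was 0.893, 0.693 and 0.811 (exact permutation adjusted p = 0.0417, 0.192 and 0.128). For FLT4 with VWF rho was then 0.933 (exact permutation adjusted p = 0.0337). The median r of the 45 pairs was 0.41 with all pigs and 0.19 without control replicate 2. Without control replicate 2, 26 pairs had a positive r, 2 passed for r and 0 for both, and without control replicate 4, 33 pairs were positive and 1 passed for both. ANGPT2 had r from -0.616 with VEGFA to 0.243 with VWF, the 1 member with which it was positive. The 4 negative pairs without ANGPT2 were VEGFA with VWF (r = -0.168) and ANGPT1 with TEK (-0.017), PECAM1 (-0.145) and VWF (-0.153).

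Several of these relations rested on control replicate 2. VEGFA with VEGFC went from r = 0.815 (rho = 0.442) to -0.110 without control replicate 2 and rpFSH replicate 1, the farthest pigs, and so rested on those pigs. VEGFA with its receptor KDR had r = 0.514 with all pigs and -0.102 without control replicate 2. In contrast, VEGFC with FLT1 kept r = 0.893 and TEK with PECAM1 r = 0.901 (0.896 with all pigs) without that library (exact permutation adjusted p = 0.0417 for both). No pair passed for both r and rho without it, and 5 pairs did when each group was centred on its mean.

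**Figure D5:**
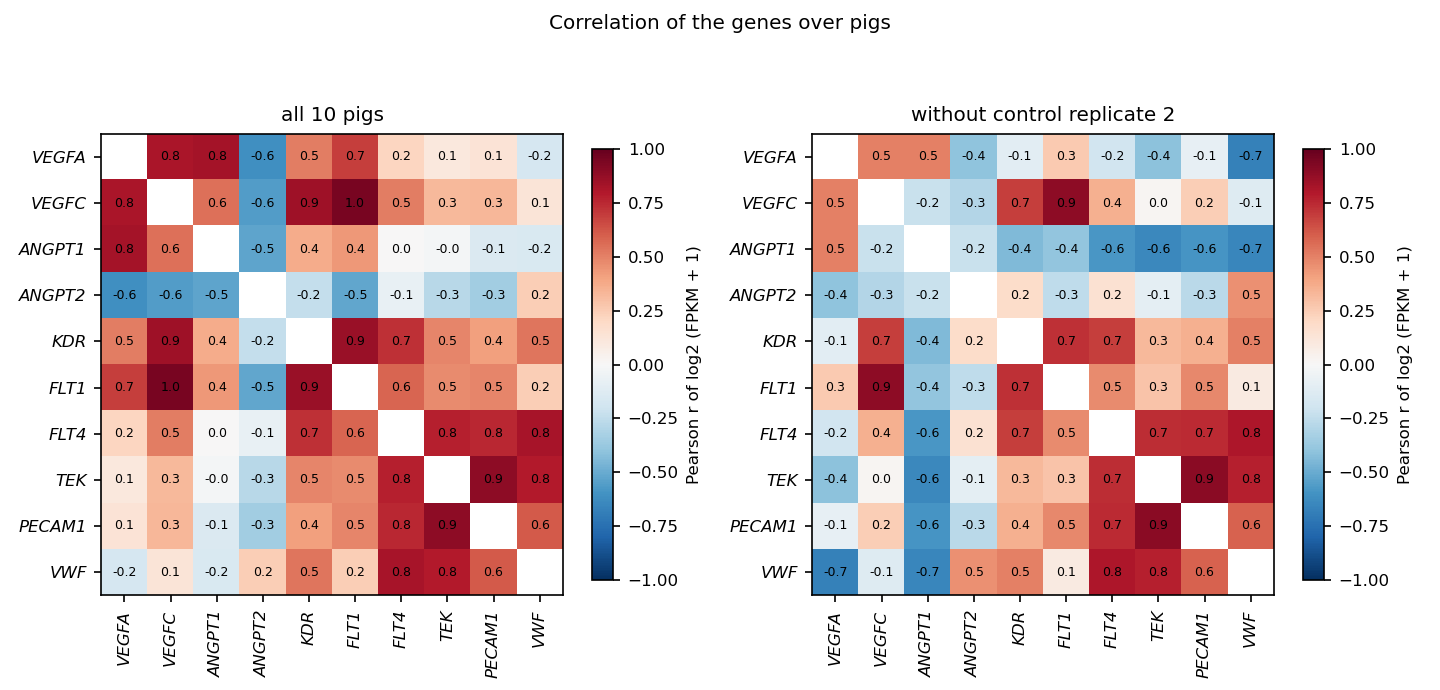
Pearson r of log2 (FPKM + 1) for the 45 member pairs over all 10 pigs (left) and without control replicate 2 (right), from -1 in blue to 1 in red. The pairs of FLT4, TEK, PECAM1 and VWF with each other stay red in both panels, while the positive values of ANGPT1 with the receptors turn negative in the right panel.

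The genes most like a member were sought among 9626 tested genes with a symbol and a mean FPKM of at least 1, and r is given over the 10 pigs as a description. For KDR the first were NOSTRIN (r = 0.941), which binds endothelial nitric oxide synthase, and ETS1 (r = 0.921), a transcription factor expressed in endothelium, followed by RSPRY1, CYP1B1 and SECISBP2L. For PECAM1 they were ZNF614 (r = 0.948), ANTXR1, FER, the ETS factor ELK3 and NOS3 (r = 0.912), the endothelial nitric oxide synthase. For VEGFA they were ABL2 (r = 0.967), TMED3 (r = 0.960), RABL3, HEATR5B and C1orf122. TMED3, a carrier of secreted proteins, had an FPKM of 121 in control replicate 2 and at most 17.8 in any other pig. For ANGPT2 they were ICK (r = 0.957), RWDD3, CPED1, NOX4 and EVL.

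Most members share their span with other loci, and the setting of strand in the counting is not given in the sources used here. The members overlapped 20 loci, of which 17 were unannotated and lay in 7 members, 7 of the loci in FLT1 and 5 in VWF. Of these 17, 12 were on the opposite strand, 2 on the same strand and 3 had no strand. Counts of a member with such a locus are therefore less certain. The unannotated locus inside VEGFC on its strand (MSTRG.13018) had a mean FPKM of 2.00 among control pigs and 1.32 among rpFSH pigs, and was highest, at 5.53, in control replicate 2. None of the 20 had an unadjusted edgeR P under 0.05 in the fit over all loci, and all had an adjusted p over 0.05.

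The other VEGF genes did not pass the test either. Of 5 tested, 0 had an unadjusted P under 0.05, and 3 were higher, beside 7333 of all 15170 tested loci. The median log2 fold change of the 5 was 0.08, or 0.11 without control replicate 2. The co-receptors NRP1 and NRP2 had log2 fold changes of 0.08 and 0.26, and VEGFB, VEGFD and PGF, the further ligands, -0.08, -0.54 and 0.78. PGF was near the detection limit, with a mean FPKM of 0.256 ± 0.163 in control and 0.400 ± 0.198 in rpFSH pigs (SD, n = 5 each). VEGFD, another ligand of FLT4, had 3.41 ± 1.18 and 2.21 ± 1.75 (SD, n = 5 each), and its log2 interval ran from -1.73 to 0.65.

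In the angiopoietin set beyond the members, 1 of 8 tested genes was higher at an unadjusted P under 0.05 (1.52% of all tested loci). It was SVEP1, a large matrix protein that binds angiopoietins and TIE1, with FPKM of 17.5 ± 4.99 in control and 28.1 ± 10.2 in rpFSH pigs (SD, n = 5 each). Its log2 fold change was 0.75 with a 95% interval from 0.13 to 1.37 (edgeR, adjusted p = 0.98), or 0.61 without control replicate 2. ANGPT4, the further ligand of TEK, had a log2 fold change of 0.36 (-0.79 to 1.51). The median of the set was 0.23, or 0.18 without control replicate 2. The endocrine gland VEGF genes PROK1, PROK2, PROKR1 and PROKR2 all fell below the FPKM minimum of the test, and PROK2 had 0 counts in every pig.

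Of all 15170 tested loci, 7333 had a log2 fold change above 0, or 7869 without control replicate 2. Among regulators of the hypoxia response, which drives VEGFA transcription, 7 of 8 tested genes did. Their median was 0.19, or 0.14 with 6 genes above 0 without control replicate 2. At an unadjusted P under 0.05 were ARNT, the partner of the hypoxia-inducible factors, with a log2 fold change of 0.55 (0.05 to 1.06), and EGLN1, an oxygen sensor that marks them for decay, with -1.18 (-2.32 to -0.04). The locus of ARNT also carries the name of CTSS, a cathepsin, so its value cannot be given to either gene alone. EGLN1 averaged 4.26 ± 3.27 and 1.80 ± 0.506 FPKM (SD, n = 5 each), with 1.19 in control replicate 2, and both had an adjusted p of 1.00 (edgeR). Of 8 tested hypoxia targets 0 had an unadjusted P under 0.05, 4 were higher and 4 lower, and the median was 0.00, or 0.12 without control replicate 2. NDRG1, a stress-response gene, and KDM3A, a histone demethylase, had the smallest P, with log2 fold changes of 0.30 and 0.18. The summed FPKM of all 8 hypoxia targets was highest in control replicate 2, at 105, and next in rpFSH replicate 1, at 98.1. It was 59.6 to 74.9 in the other pigs. NDRG1 and KDM3A themselves were highest in rpFSH replicate 3.

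Downstream of the receptors, 0 of 11 tested VEGF receptor signalling genes had an unadjusted P under 0.05, and their median was 0.08, or 0.06 without control replicate 2. The endothelial nitric oxide synthase NOS3 had a log2 fold change of 0.38 and the adaptor CRK -0.21. In the vascular Notch set 1 of 7 did, DLL4, the ligand of the leading endothelial cells of a sprout, which VEGFA induces. Over all tested loci, 1.52% were higher at this P. DLL4 had 1.71 ± 0.479 FPKM in control and 2.33 ± 0.253 in rpFSH pigs (SD, n = 5 each), a log2 fold change of 0.51 (0.05 to 0.97), or 0.65 without control replicate 2 (edgeR, adjusted p = 1.00 with all pigs). HEY1, a target of Notch, had 0.24, and the median of the set was 0.04, or 0.13 without control replicate 2. All 7 tested angiogenesis inhibitors had a log2 fold change above 0, with a median of 0.29, and without control replicate 2 the median was 0.22 and 6 of them were above 0. Of all 15170 tested loci, 7333 were above 0, or 7869 without control replicate 2. ADAMTS1, a protease that releases antiangiogenic fragments and takes part in ovulation, had 7.47 ± 3.12 and 13.6 ± 3.24 FPKM (SD, n = 5 each), with a log2 fold change of 0.93 (0.29 to 1.58; edgeR, adjusted p = 0.98), and was the 1 inhibitor with an unadjusted P under 0.05. THBS2, a thrombospondin, followed with 0.67 (-0.04 to 1.38).

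Of the 53 genes that the table assigns to the KEGG VEGF signaling pathway, 51 were tested. The unadjusted P was under 0.05 for 1 that was higher, the kinase AKT2 (log2 fold change 0.46), and for 2 that were lower, among them the kinase MAPK13 (-0.77), and the median was 0.00. Of 126 genes with the GO term angiogenesis 115 were tested, with a median of 0.07. At this P, 3 were higher, namely SHC1, an adaptor of receptor kinases (0.39), DLL4 (0.51) and ACKR3, a scavenger of chemokines (0.78), and 2 lower, SOX17 (-1.86) and PKNOX1 (-0.51). ACKR3, SOX17 and PKNOX1 were named from this list after their values were seen. Over all tested loci, 1.52% were higher and 3.21% lower at this P. After adjustment 0 genes of either list passed, as over all loci (edgeR). Without control replicate 2 the medians were 0.04 for the KEGG list and 0.11 for the GO list.

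The vessel markers outside the members gave a similar picture. Over all 15170 tested loci, 7333 had a log2 fold change above 0, or 7869 without control replicate 2. At an unadjusted P under 0.05, 1.52% of the tested loci were higher and 3.21% lower. Of 20 endothelial markers 16 were tested, and 11 had a log2 fold change above 0, with a median of 0.17, or 0.35 without control replicate 2. SOX17, an arterial transcription factor, was the 1 gene with an unadjusted P under 0.05 (log2 fold change -1.86, or -1.56 without control replicate 2). It had 6.45 FPKM in control replicate 5 and 4.61 in control replicate 2, 0.396 to 0.680 in the other 3 control pigs, and a mean of 0.648 ± 0.365 in rpFSH pigs (SD, n = 5). These 2 control pigs were also the 2 highest for the oviduct-type markers. The unadjusted P of SOX17 was over 0.05 without control replicate 2, and its locus also carries an Ensembl identifier. ENG, a co-receptor of the TGF-beta family, had 0.37 (-0.07 to 0.82). All 5 tested lymphatic markers had a log2 fold change above 0, with a median of 0.51 and no unadjusted P under 0.05, and without control replicate 2 the median was 0.76. The largest was LYVE1, a hyaluronan receptor of lymphatic vessels (0.95, with an interval from -0.13 to 2.04), and CCL21, a lymphatic chemokine, had 0.41, or 0.97 with an unadjusted P under 0.05 without control replicate 2. MMRN1, a multimerin, had 0.73, the secreted glycoprotein RELN 0.51 and the transcription factor PROX1 0.22.

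The summed lymphatic markers had a range of 14.0 to 53.3 in the control pigs and 25.7 to 71.5 in the rpFSH pigs. Within the latter, replicates 3, 4 and 5 had 44.9, 71.5 and 70.3, and replicates 1 and 2 had 29.6 and 25.7, the same division as for FLT4. It was not particular to lymphatic genes. TEK, PECAM1 and VWF were divided in the same way, while KDR and FLT1 were not. The summed endothelial markers were 55.3 and 71.4 in rpFSH replicates 1 and 2, and 96.5 to 99.6 in replicates 3, 4 and 5. Control replicate 4 had the lowest sum of lymphatic markers and of endothelial markers (52.5), and also the lowest level of 5 members, KDR, FLT1, FLT4, TEK and PECAM1. Among mural cell markers 8 of 11 were below 0, as were 7837 of the 15170 tested loci. The mural markers had a median of -0.29, or -0.03 without control replicate 2. NOTCH3 had 0.17 and the proteoglycan CSPG4 -0.54, and the sum of the list was 1189.7 in control replicate 5 and 146 to 442 elsewhere.

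The remaining marker lists bear on what else the samples held. The 6 tested oviduct-type epithelium markers were all lower in the rpFSH treatment group with an unadjusted P under 0.05. Over all tested loci, 3.21% were lower at this P. None of the 6 had an adjusted p under 0.05 (edgeR), and the list was chosen with earlier results known. Their median log2 fold change was -2.68, or -2.26 without control replicate 2. DNAH5, a ciliary dynein, had -3.50 and MAL2, an epithelial membrane protein, -1.90 (edgeR, adjusted p = 0.98 for both). The luteal markers had a median of -0.55 with all pigs and 2.97 without control replicate 2, so their direction depended on this library. With all pigs PTGFR had -1.36, CYP11A1 -0.84, SCARB1 -0.26 and STAR 0.12. Of the blood markers, 0 of 3 tested platelet and 0 of 3 tested erythroid genes had an unadjusted P under 0.05, with the haemoglobin gene HBB at 53.0 ± 40.0 and 28.3 ± 15.2 FPKM (SD, n = 5 each). The log2 fold changes of the platelet genes were 0.32 for GP1BB, -0.16 for GP9 and 0.02 for ITGA2B, PPBP being below the FPKM minimum, and those of HBM, another globin, and ALAS2, of haem synthesis, were -0.63 and -0.47. Likewise 0 of 6 granulosa, 0 of 3 theca, 0 of 6 leukocyte and 0 of 5 oocyte markers had such a P. Among the granulosa markers INHA, the inhibin alpha subunit, had 0.72 and FST, follistatin, -0.33. For theca cells the values were 0.37 for NR5A1, -1.15 for INSL3 and -0.32 for CYP17A1, and for leukocytes -0.63 for CD3E and 0.17 for CD68. The oocyte genes lay between -0.28 for ZP2 and 0.43 for ZP3, with 0.42 for BMP15, 0.12 for GDF9 and -0.18 for DDX4.

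Of 6 stroma markers 4 had a log2 fold change above 0, as did 7333 of the 15170 tested loci. The stroma markers had a median of 0.18, or 0.04 without control replicate 2. PDGFRA, a growth factor receptor of mesenchymal cells, had 0.53 (-0.06 to 1.13). LUM, a collagen-binding proteoglycan, was the 1 with an unadjusted P under 0.05 (log2 fold change -1.51, or -1.64 without control replicate 2). It had 29.0 FPKM in control replicate 5, against 3.56 to 8.09 in the other control pigs and 2.07 to 6.19 in the rpFSH pigs. Over all tested loci, 3.21% were lower at an unadjusted P under 0.05. The part of these cell types in the members' levels was not tested.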

How the data were processed

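RNA-seq values of ovary samples from 5 control and 5 rpFSH gilts were used. According to the methods and labels, the authors used Cutadapt for trimming, HISAT2 2.0 and Bowtie (0.12.2 in the submitters' processing notes) for mapping to Sscrofa11.1, and assembled and quantified loci with StringTie 1.3.0 and Ballgown. The authors deposited FPKM and whole-number counts per locus and pig in a single table, and how the counts were made is not given in the sources used here. An FPKM of 0.0001 is its lowest entry. Its GO, KEGG and type columns were used as annotation.

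Counts were tested with edgeR 4.0.16 (quasi-likelihood, TMM, R 4.3.3) over the 15170 protein-coding loci whose mean FPKM reached 0.1, with Benjamini-Hochberg adjustment over all of them. The authors had tested FPKM with Ballgown. DESeq2 1.42.0 and limma 3.58.1 on log2 (FPKM + 1) were alternatives. Ratios and correlations were tested by permutation of pigs (Python 3.11.15, numpy 2.4.6, pandas 2.3.3, scipy 1.17.1, seed 1), with adjustment over 8 ratios and 45 pairs. In simulated data for the comparison of the groups, with 200 of 15170 genes changed 4-fold (log2 change of 2), edgeR called 76.5% of the changed genes at an adjusted p under 0.05, and 4.44% of the unchanged genes had an unadjusted P under 0.05. The changed genes were drawn from loci with higher counts, and the change was larger than any member's log2 fold change. The rate of 76.5% therefore does not carry over to the members. A count of 3 equals 0.0399 to 0.0462 CPM in these libraries, and members had 186 to 37122 counts per pig. These limits cover counting error only.

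The members and the gene lists were chosen with earlier results of these data known. Of 155 listed symbols 132 matched a protein-coding locus. Named genes are the members, the 2 genes of smallest edgeR P per list (every gene in lists of up to 5 genes), and the 5 genes most like VEGFA, KDR, ANGPT2 and PECAM1 by r. Replicate numbers come from the sample titles, and the methods describe no pairing. The p-values measure the spread between pigs. TMM-scaled CPM for the overlap of groups, and leaving out each pig for the correlations, were chosen after seeing the data. Positions are those of the table. 1 gene of the KEGG list is not reported here by name. No sequence was read.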

Additional observations from a re-analysis of the deposited data

Results flagged for a closer look

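In 36 sets of 5 values (the members' FPKM and the log2 ratios, per group), the distance of the extreme pig from its nearest neighbour was set against the whole range of the group, and 4 sets exceeded Dixon's 95% value of 0.71. Chance gives about 1 in 20 such sets where values are normally distributed. The members' FPKM were not put on a log scale here, and the sets share genes and pigs. That rate therefore cannot be applied directly to the count of 4. Of the 4, 3 were due to control replicate 2, which was far above the other control pigs for VEGFA (35.5 FPKM, with 12.3 next), VEGFC (8.56 FPKM, with 2.17 next) and FLT1 (15.3 FPKM, with 6.59 next). The fourth was the log2 ratio of VEGFC to FLT4 in rpFSH replicate 1, at -0.16 with -2.02 next. These pigs also had the highest sums of luteal markers, and the part of luteal tissue in these values was not tested.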

How the results depend on the processing

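No member passed an adjusted p of 0.05 or the limits of the methods under any of 22 alternatives, including other scalings, filters, limma, DESeq2, a robust fit and each pig left out. The direction of FLT4, PECAM1 and VWF was positive in all of them, while other directions turned. Without control replicates 2 and 5, the log2 fold change was 0.28 for VEGFA and 0.60 for VEGFC, and the log2 ratio difference was -0.54 for ANGPT2 over ANGPT1 and 0.16 for FLT1 over KDR. FLT1 had -0.0469 over all loci and -0.0065 with a mean FPKM of at least 1. With the replicate block VEGFC had 0.21 and ANGPT2 0.0561, and the replicate block changed no call. Same-numbered pigs had correlations of their deviations from -0.391 to 0.0603, and 0 of 5 control pigs correlated best with its own number, so the numbers were not taken as pairs. With 1 pig left out, log2 fold changes ran from -0.60 to 0.25 for VEGFA, -0.51 to 0.68 for VEGFC, -1.21 to 0.0738 for ANGPT1, -0.28 to 0.21 for ANGPT2, -0.0335 to 0.43 for KDR, -0.18 to 0.55 for FLT1 and -0.14 to 0.31 for TEK, and the log2 ratio differences from -0.30 to 1.09 for ANGPT2 over ANGPT1 and -0.17 to 0.11 for FLT1 over KDR. Of the single pigs, control pig 2 was the 1 that turned VEGFA and ANGPT1. The 3 pairs that passed for both correlations became 5 with groups centred, 0 without control replicates 2 and 5, and 0 to 6 with 1 pig left out, the 0 arising when control pig 2, rpFSH pig 3 or rpFSH pig 5 was left out. In all, 31 of the values for members and ratios changed sign and 293 did not. The cause was not tested. With 5 pigs per group, the 95% interval of the log2 fold change ran from -2.28 to 0.68 in ANGPT1 and from -0.26 to 0.95 in PECAM1.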
